A study of Mus musculus with 6 samples.

Results

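Klf2, the S1P receptors S1pr1 and S1pr4, and related genes of lymphocyte egress were followed in mouse DN1 cells, the earliest of the thymocytes that carry neither CD4 nor CD8. The set holds 8 genes of the 24318 gene symbols listed: the Krüppel-like factors Klf2, Klf3, Klf4, Klf6 and Klf13, the receptors S1pr1 and S1pr4, and the forkhead factor Foxo1. They were matched by gene symbol in all 6 deposited tables, and the values of the rows of a symbol were added. The genes were chosen with the difference between the genotypes already known, so their differences are given as a description, with no test. All 8 were listed above 0, and reached 1 FPKM (RNA fragments counted per kilobase of a transcript, relative to all mapped fragments), in all 6 libraries.

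The study set 3 libraries labelled Tle134-deficient against 3 labelled WT. In both groups the DN1 gate took CD44+ cells without CD25, CD8a, TCRb or lineage markers, and the mice were 5 to 8 weeks old. Tle134 is taken to stand for Tle1, Tle3 and Tle4, corepressors of the Groucho family that bind Tcf/Lef, Runx and other factors. The sources used here do not say which alleles or Cre driver were used, nor whether the libraries came from separate or pooled mice. P-values then measure only the spread between these libraries, some of which may be technical.

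Klf2 is a zinc finger factor that in T cells switches on S1pr1, and it is known for keeping lymphocytes quiescent and recirculating. S1pr1 senses sphingosine-1-phosphate (S1P), a lipid that is abundant in blood and lymph and scarce in tissue. Mature thymocytes need S1pr1 to leave the thymus along that gradient, and the surface protein Cd69 holds the receptor inside the cell. Foxo1 drives Klf2, Ccr7 and the interleukin-7 receptor in T cells when PI3K-Akt signalling is low. Klf2 and S1pr1 are also genes of naive and follicular B cells and of endothelium.

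Values of Tle1 and Tle3 went against the labels. In replicates 1 to 3 labelled Tle134-deficient Tle1 was at 11.5, 11.3 and 11.1 FPKM, against 1.37, 1.19 and 3.61 FPKM in WT, and Tle3 was at 82.6, 77.5 and 58.6 against 26.1, 35.9 and 23.4 FPKM. Tle4 overlapped, at 27.8, 35.2 and 17.8 against 17.9, 18.8 and 14.5 FPKM. These are values of whole loci and do not check the loss of single exons. Whether the labels were exchanged was not tested, and an exchange would turn every direction given here, so the groups are named by their labels throughout, WT standing for the libraries labelled WT. Of the genes of the gate, Cd44 was at 27.5 FPKM or more in all 6 libraries, Cd8a reached at most 2.48 FPKM, and Il2ra (CD25) was at 4.22 to 7.36 FPKM in libraries labelled deficient and 1.69 to 3.59 FPKM in WT. RNA of other coreceptor genes was present: Cd4 was at 7.93 to 29.6 FPKM in libraries labelled deficient and 4.03 to 19.5 FPKM in WT, and Cd8b1 at 1.18 to 7.84 and 0.690 to 10.1 FPKM. The deposited bounds imply about 1.41e+06 to 4.34e+06 fragments per library in loci with a symbol. Labelled-deficient replicate 3 stood apart in myeloid markers, and results are given without it below.

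The stretch of 250 bases before the start of transcription is shown for 4 of the genes. These had a promoter entry and no overlap between the groups as deposited: Klf2, Klf13 and S1pr4, higher in libraries labelled deficient, and Klf3, lower there. The separation of Klf13 and Klf3 was lost under other scalings, and that of S1pr4 with its neighbour Ncln added, as given below. Foxo1, Klf4 and Klf6 overlapped and are not shown. Capitals mark matches to CACCC, read on both strands, the core bound by Klf factors, and in Klf2 also the match to the consensus of the MEF2 factors.
Klf2, chr8:72318812-72319061, plus strand: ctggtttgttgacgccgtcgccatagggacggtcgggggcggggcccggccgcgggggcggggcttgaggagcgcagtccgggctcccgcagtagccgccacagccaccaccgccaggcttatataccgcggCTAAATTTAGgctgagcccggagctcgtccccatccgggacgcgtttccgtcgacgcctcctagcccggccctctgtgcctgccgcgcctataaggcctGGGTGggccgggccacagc
Klf13, chr7:63938916-63939165, minus strand: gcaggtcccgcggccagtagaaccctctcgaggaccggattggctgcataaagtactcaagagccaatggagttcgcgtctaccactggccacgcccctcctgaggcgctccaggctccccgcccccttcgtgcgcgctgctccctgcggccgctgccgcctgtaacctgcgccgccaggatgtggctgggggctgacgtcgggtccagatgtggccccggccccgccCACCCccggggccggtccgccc
S1pr4, chr10:81500138-81500387, minus strand: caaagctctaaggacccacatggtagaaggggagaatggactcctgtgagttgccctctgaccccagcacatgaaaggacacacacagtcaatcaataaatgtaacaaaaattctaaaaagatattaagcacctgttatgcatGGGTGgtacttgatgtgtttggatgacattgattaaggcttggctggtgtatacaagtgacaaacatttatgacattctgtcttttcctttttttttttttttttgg
Klf3, chr5:64803271-64803520, plus strand: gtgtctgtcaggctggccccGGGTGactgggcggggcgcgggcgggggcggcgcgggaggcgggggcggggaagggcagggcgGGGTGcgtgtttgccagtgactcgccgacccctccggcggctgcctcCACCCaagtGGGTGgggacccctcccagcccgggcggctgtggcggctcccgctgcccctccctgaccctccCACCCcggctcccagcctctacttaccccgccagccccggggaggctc

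These sequences and their coordinates are RefSeq's on GRCm38.p6, a later build than the mm9 of the deposited tables, and 7 of the 8 genes matched an entry; the other is S1pr1. The CACCC core was in 4 of the 7 (Klf2, Klf3, Klf13 and S1pr4), against 52% of the 32851 promoter entries of the same length. Those 4 genes are also the 4 shown, and a link of the core to the difference between the groups was not tested. The MEF2 consensus matched Klf2 alone of the 7, from base 118 to base 109 before the start, against 2.92% of all entries. MEF2 factors are known to drive Klf2 downstream of the kinase Mapk7 (Erk5). Other cores were read on both strands too. The Foxo core GTAAACA was in 0 of the 7 windows, against 3.17% of all entries. The Tcf/Lef core CTTTGA was in 0 of the 7, against 13.8%, and the Runx core TGTGGT in 0 of the 7, against 14%. The S1pr4 window was poor in G and C (38.8%, with 0 CpG), while those of Klf2 (71.2%, 29 CpG), Klf13 (71.6%, 24 CpG) and Klf3 (78.4%, 23 CpG) were rich, against a median of 52.4% over all entries. A match is a description of letters, and no match says only that these letters are not in this window.

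Klf2 was the member with the largest difference. It was at 178, 189 and 81.4 FPKM in labelled-deficient replicates 1 to 3, against 29.1, 37.0 and 24.97 FPKM in WT, so every labelled-deficient library lay above every WT library. Its locus is on chromosome 8 from 74842961 to 74845553 (mm9), with the start a few bases earlier in libraries labelled deficient. The mean was 149 ± 59.2 FPKM against 30.3 ± 6.10 FPKM (SD, n = 3 each), a ratio of 4.93. The log2 difference was 2.19 ± 0.42 (SE), taken on log2(FPKM + 1), a scale on which changes of low genes come out too small. The difference was above that of 98.5% of the 11063 genes tested.

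Replicate 3 of the labelled-deficient group was the least certain Klf2 value. Its deposited bounds ran from 36.5 to 126 FPKM, 55.1% of the value on each side, and reached those of WT replicate 2 (34.4 to 39.6 FPKM). In the other 5 libraries the Klf2 bounds were 4.48% to 13% of the value. Without that library the log2 difference was 2.57. Within a library Klf2 ranked higher than 98.5%, 99% and 95.9% of the symbols above 0 in libraries labelled deficient, against 92.6%, 94.8% and 80.9% in WT.

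**Figure D1:**
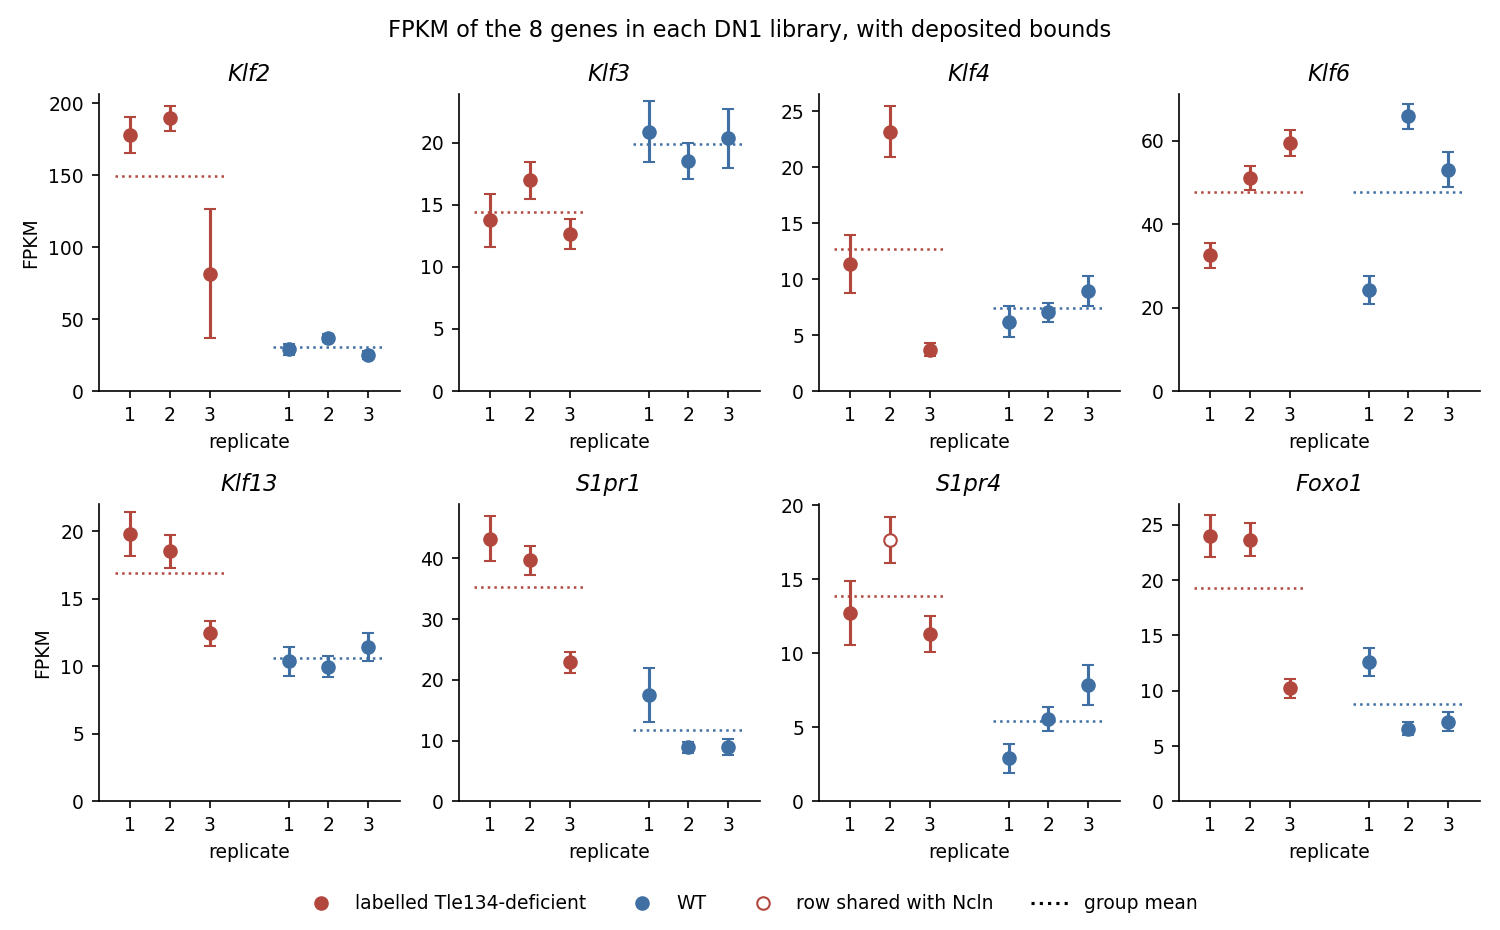
FPKM of each of the 8 genes (vertical axes, from 0) in the 3 labelled-deficient libraries (left, red) and the 3 WT libraries (right, blue). Vertical bars are the deposited lower and upper bounds, dotted lines are group means, and the open point is the S1pr4 value that shares its row with Ncln; for Klf2 the labelled-deficient libraries sit between 81.4 and 189 FPKM and the WT libraries between 24.97 and 37.0 FPKM.

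Of the 8 genes, 4 were higher without overlap between the groups (Klf2, Klf13, S1pr1 and S1pr4), 1 was lower without overlap (Klf3) and 3 overlapped (Klf4, Klf6 and Foxo1). Over all 11063 genes tested, 8.67% were higher and 6.56% lower without overlap. Since the genes were chosen on this contrast, nothing is read from the count.

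The separation of Klf13, S1pr1 and Klf3 depended on scaling. With each library rescaled to the median ratio over genes, only Klf2 and S1pr4 stayed apart, S1pr4 also without the shared row described below. S1pr1 in labelled-deficient replicate 3 was then at 19.8 scaled FPKM and in WT replicate 1 at 20.9. Klf13 in labelled-deficient replicate 3 was at 10.8 against 12.4 in WT replicate 1, and Klf3 in labelled-deficient replicate 2 was at 18.5 against 16.6 in WT replicate 3. Quantile normalization left the same pair apart. The log2 differences themselves moved little under both, to 2.14 and 2.07 for Klf2 and 1.47 and 1.41 for S1pr1.

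**Figure D2:**
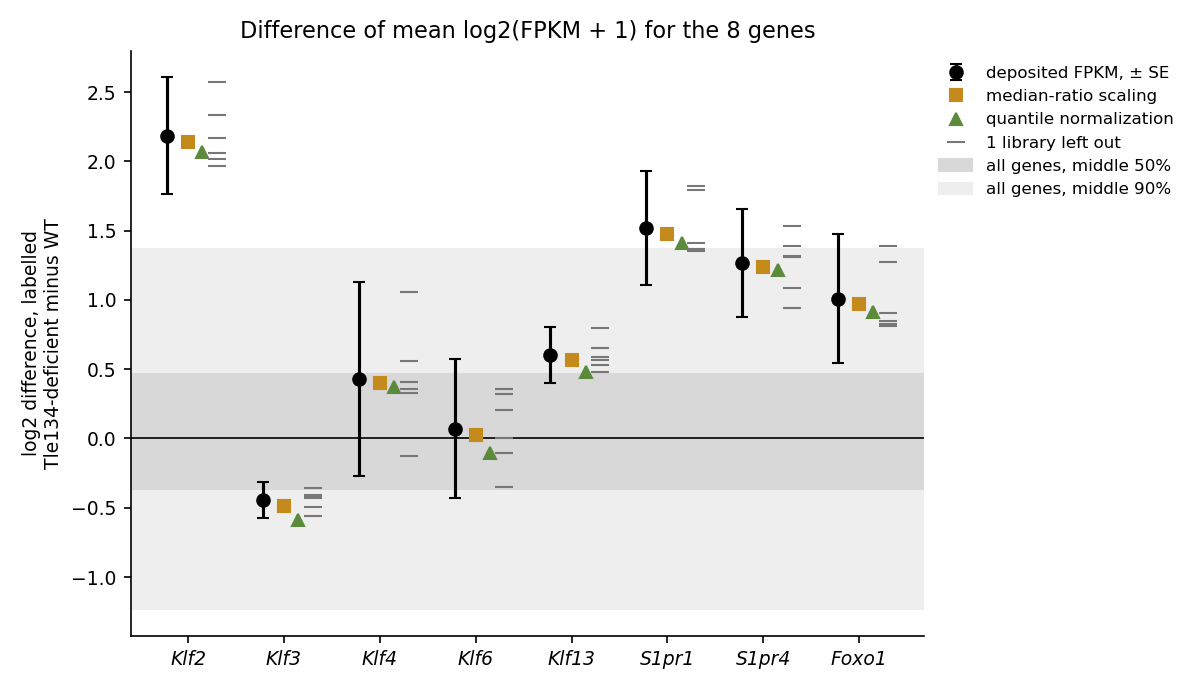
Log2 difference, labelled deficient minus WT, of mean log2(FPKM + 1) for the 8 genes (black points with SE, n = 3 each), after 2 other scalings, and with 1 library left out (grey dashes), over the middle 50% and 90% of all genes tested. Klf2 (2.19) and S1pr1 (1.52) lie above the 90% band, and Klf4 and Klf6 have settings on either side of 0.

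S1pr1, the egress receptor, was at 43.2, 39.6 and 22.9 FPKM in libraries labelled deficient, against 17.5, 8.90 and 8.93 FPKM in WT. Labelled-deficient replicate 3 and WT replicate 1 came closest, and their bounds touched (21.2 to 24.5 against 13.1 to 21.9 FPKM). The locus is on chromosome 3 from 115413351 to 115417973 (mm9) in 3 of the libraries, and the assembled stretch was longer at both ends in the other 3. Means were 35.2 ± 10.9 and 11.8 ± 4.96 FPKM (SD, n = 3 each), a ratio of 2.99, and the log2 difference was 1.52 ± 0.41 (SE). It was 1.80 without labelled-deficient replicate 3 and 1.82 without WT replicate 1.

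S1pr4, a receptor of lymphoid and myeloid cells that is known for their migration rather than for thymic exit, is less clear. It had rows of its own at 12.7 and 11.3 FPKM in labelled-deficient replicates 1 and 3, against 2.90, 5.57 and 7.86 FPKM in WT. In labelled-deficient replicate 2 the only row joined it with its neighbour Ncln, which lies within the same assembled stretch of chromosome 10 (80949204 to 80962882, mm9), at 17.7 FPKM. Ncln alone was at 17.8 and 18.4 FPKM in labelled-deficient replicates 1 and 3 and 10.5 to 15.8 FPKM in WT, so the shared row may hold mostly Ncln and is not a value of S1pr4.

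Without the shared row, S1pr4 averaged 12.0 ± 1.02 FPKM in 2 labelled-deficient libraries and 5.45 ± 2.48 FPKM in 3 WT libraries (SD), a log2 difference of 1.09 ± 0.35 (SE), against 1.26 with it. With both symbols added in every library the log2 difference was 0.45, and the groups overlapped. The other receptors of the family were low. S1pr2 was at 0.392, 4.94 and 1.55 FPKM in libraries labelled deficient, against 3.55, 1.001 and 3.93 FPKM in WT (limma adjusted p = 0.945). S1pr3 and S1pr5, named here for their family after their values were seen, were at 3.57 to 4.24 against 1.68 to 4.84 FPKM, and at 0 to 0.625 against 0 to 0.223 FPKM.

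Foxo1 was at 24.0, 23.6 and 10.2 FPKM in libraries labelled deficient, against 12.6, 6.58 and 7.21 FPKM in WT. Replicates 1 and 2 of the labelled-deficient group lay above all WT libraries, but replicate 3 lay below WT replicate 1, so the groups overlapped. The log2 difference was 1.01 ± 0.46 (SE, n = 3 each), and 1.39 without labelled-deficient replicate 3. Its locus spans chromosome 3 from 52072259 to 52154031 (mm9). Within a library the ratio of S1pr1 to Foxo1 was 1.80, 1.68 and 2.24 in libraries labelled deficient and 1.39, 1.35 and 1.24 in WT. The least labelled-deficient ratio was thus above the greatest in WT. The ratio of S1pr1 to S1pr4 overlapped, at 2.03 to 3.398 in libraries labelled deficient, with the shared row in replicate 2, and 1.14 to 6.03 in WT. Ratios of Klf2 to Klf4 (8.17 to 21.99 against 2.798 to 5.25), and to Klf6 and Klf3, given below, did not overlap. Such a ratio is unchanged when a whole library is multiplied by a common factor. Ratios after quantile normalization and of other gene pairs were not tested.

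Among the other Klf factors of the set, Klf13 and Klf3 had small differences of opposite sign. Klf13, a GC-box factor known in T cells for driving the chemokine gene Ccl5, was at 19.8, 18.5 and 12.4 FPKM in libraries labelled deficient, against 10.4, 9.97 and 11.4 FPKM in WT. The lowest labelled-deficient value was only 1.09 times the highest WT value, and the bounds of these libraries overlapped (11.5 to 13.4 and 10.4 to 12.5 FPKM). The log2 difference was 0.60 ± 0.20 (SE, n = 3 each). Klf13 lies on chromosome 7 from 71031237 to 71083801 (mm9).

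Klf3, a repressor of the family that recruits Ctbp, was at 13.7, 17.0 and 12.6 FPKM in libraries labelled deficient, against 20.9, 18.5 and 20.3 FPKM in WT. All 3 labelled-deficient values were below all WT values, and labelled-deficient replicate 2 came within 0.916 times the lowest WT value. The bounds of that library (15.5 to 18.4 FPKM) overlapped those of WT replicate 2 (17.1 to 19.9 FPKM). Bounds were apart in 6 of the 9 pairs of a labelled-deficient and a WT library. The log2 difference was -0.44 ± 0.13 (SE, n = 3 each). Klf3 was the least variable member in WT, with an SD of 6.26% of the mean, and lies on chromosome 5 (65194758 to 65221997 in WT replicate 1, mm9).

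Klf4 and Klf6 did not separate. Klf4, known for cell cycle arrest and for monocyte differentiation, was at 11.3, 23.2 and 3.70 FPKM in libraries labelled deficient, against 6.18, 7.04 and 8.92 FPKM in WT. The labelled-deficient group held both the highest and the lowest library, a 6.27-fold range, and the log2 difference of 0.43 ± 0.70 (SE, n = 3 each) turned to -0.13 without labelled-deficient replicate 2 and grew to 1.06 without replicate 3. Klf6, a broadly expressed factor induced by stress and in myeloid cells, was at 32.5, 51.1 and 59.5 FPKM, against 24.1, 65.9 and 53.1 FPKM. Its group means were both 47.7 FPKM, and its log2 difference of 0.07 ± 0.50 (SE) ran from -0.35 to 0.36 when 1 library was left out and was -0.11 after quantile normalization. Klf4 lies on chromosome 4 (55540009 to 55545347) and Klf6 on chromosome 13 (5860735 to 5869639, both mm9).

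The order of the levels, per length of transcript, differed between the groups. In the labelled-deficient libraries Klf2 led by its mean, followed by Klf6, S1pr1, Foxo1, Klf13, Klf3, S1pr4 and Klf4, and only Klf2 stood apart from its neighbour, its lowest library lying above the highest of Klf6. In WT the order was Klf6, Klf2, Klf3, S1pr1, Klf13, Foxo1, Klf4 and S1pr4. There Klf2 lay above Klf3, and Klf3 above S1pr1, without overlap, and no other neighbours were separated. Within a library the ratio of Klf2 to Klf6 was 5.46, 3.70 and 1.37 in libraries labelled deficient, against 1.21, 0.561 and 0.470 in WT. The ratio of Klf2 to Klf3 was 12.9, 11.2 and 6.44, against 1.39, 1.999 and 1.23, so the least of the labelled-deficient ratios was above the greatest in WT for both pairs.

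Genes around the set were read from 8 lists of the S1P, Klf and Foxo pathway. Of 103 genes listed, 88 were tested, 1 rose (Cxcr4) and 0 fell past an adjusted p of 0.05 in limma with Benjamini-Hochberg adjustment. That is 1.14% of the genes tested, beside 0.75% of all genes (0.642% higher and 0.108% lower). At an unadjusted p under 0.05, 6 were higher and 3 lower, and of all genes 5.68% were higher and 4.35% lower. Their median log2 difference was 0.25, beside 0.04 for all genes tested. Cxcr4, the receptor for Cxcl12 that holds early thymocytes and B-cell precursors in their niches, was at 75.7, 82.9 and 97.8 FPKM in libraries labelled deficient, against 17.5, 19.8 and 19.8 FPKM in WT. Its log2 difference was 2.104 ± 0.38 (SE, limma adjusted p = 0.0431), and it was higher in 3 of 3 libraries. The adjusted p ran from 0.0313 to 0.194 over 15 other settings, the direction held in all of them, and the call held in 4 of them and was lost without any 1 of the 6 libraries (adjusted p 0.0727 to 0.194). A fit without 1 library had 2 libraries in its group.

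Genes of S1P supply and receptor signalling had no call. Of 10 tested genes of S1P synthesis, export and breakdown, 0 passed, with a median log2 difference of 0.26. Sgpp2, an S1P phosphatase, was at 1.98, 2.62 and 1.68 FPKM in libraries labelled deficient and listed at 0 in all 3 of WT (limma adjusted p = 0.151). Of 13 tested genes of receptor signalling and control, 0 passed, with a median of 0.35. Gna12, the alpha subunit of a heterotrimeric G protein, was at 7.11, 20.4 and 17.6 FPKM, against 6.99, 5.57 and 9.25 FPKM (limma adjusted p = 0.627). Cd69, named for its role after its values were seen, was at 193, 174 and 62.4 FPKM, against 28.7, 214 and 73.9 FPKM (limma adjusted p = 0.857), and WT replicate 2 held the highest value of all.

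Other Klf factors and the known inputs of Klf2 had no call either. Of 12 other Klf genes, 6 were tested and 0 passed (median log2 difference 0.39). Klf5 was at 4.87, 2.08 and 11.9 FPKM in libraries labelled deficient, against 0.227, 2.28 and 1.06 FPKM in WT (limma adjusted p = 0.417). Klf8, Klf12, Klf14, Klf15 and Klf17 stayed under 1 FPKM in all 6 libraries. Of 11 tested genes that control Klf2, 0 passed (median -0.35). Mef2c, a MEF2 factor of lymphoid and myeloid progenitors and B cells, was at 23.8, 26.2 and 52.5 FPKM, against 5.89, 9.58 and 40.6 FPKM (limma adjusted p = 0.623). Both groups had their highest Mef2c value in replicate 3.

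Foxo inputs and targets were mixed. Of 14 tested Foxo and PI3K-Akt genes, 0 passed (median log2 difference -0.11). Inpp4b, a phosphatase that lowers PI3K signalling, was at 2.87, 1.38 and 5.25 FPKM in libraries labelled deficient, against 10.5, 7.71 and 11.8 FPKM in WT, without overlap (limma adjusted p = 0.290). Of 12 genes known as targets of Klf2 or Foxo1, 0 passed, 9 differences were above 0 and 3 below, and the median was 0.58. Ccr7, the receptor that guides lymphocytes to lymph nodes, was at 18.9, 30.3 and 11.3 FPKM, against 5.35, 2.75 and 9.11 FPKM, without overlap (limma adjusted p = 0.240).

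**Figure D3:**
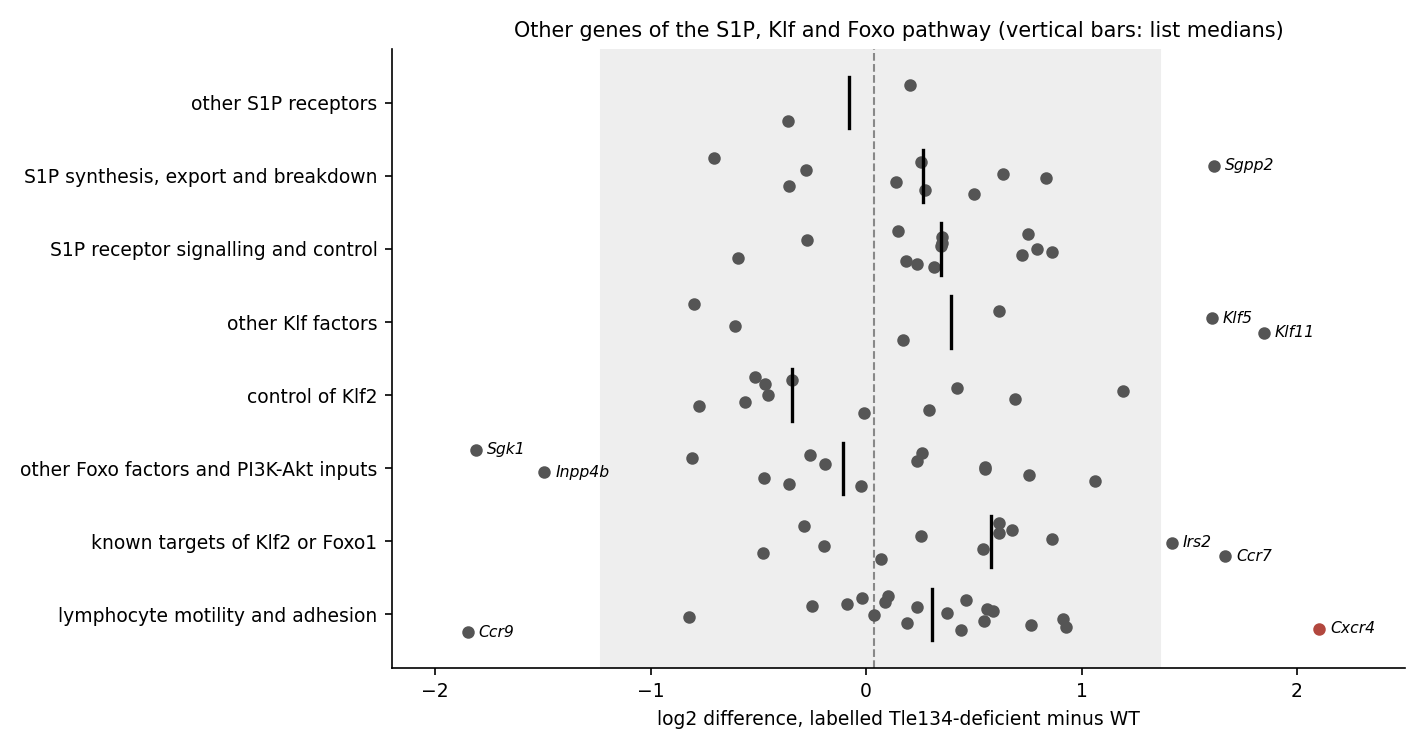
Log2 differences, labelled deficient minus WT (horizontal axis), of the tested genes in 8 lists around the set, each point a gene, black bars the list medians, the grey band the middle 90% of all genes and the dashed line their median (0.04). The red point, Cxcr4 (2.104), is the only gene past an adjusted p of 0.05, and genes beyond 1.3 in size are named.

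Markers of B cells were higher in libraries labelled deficient, as Klf2 and S1pr1 were. All 16 tested B-cell markers had a log2 difference above 0, 11 of them past the threshold and 0 lower, with a median of 3.42, and their summed level was 858 to 1472 FPKM in libraries labelled deficient, against 84.8 to 190 FPKM in WT. Cd22, an inhibitory coreceptor of B cells, had a log2 difference of 4.22 ± 0.41 (SE, limma adjusted p = 0.0154), and Fcer2a (4.01) and Fcmr (4.02), receptors of IgE and IgM on mature B cells, had an adjusted p of 0.0279 each in limma. These calls were lost without labelled-deficient replicate 1 (limma adjusted p 0.0843 for Cd22, 0.133 for the other two), labelled-deficient replicate 2 (0.116 for each) and WT replicate 1 (0.0774 for Cd22 and Fcer2a, 0.109 for Fcmr), and without WT replicate 2 for Fcer2a (0.0722) and Fcmr (0.0734). They were also lost with no filter on low values (0.0605 for Cd22, 0.0806 for the other two), and with the replicate block for Fcer2a and Fcmr (0.0738 each). Labelled-deficient replicate 3 had the lowest summed B-cell level of its group, as it had the lowest value of every member but Klf6, Klf3 included. In WT the order differed. B-cell sums were 103, 84.8 and 190 FPKM in WT replicates 1 to 3, where Klf2 was at 29.1, 37.0 and 24.97 FPKM. The highest WT values of S1pr1, Foxo1 and Klf3 were in replicate 1 and that of Klf6 in replicate 2. Those of Klf4, Klf13 and S1pr4 were in replicate 3. None of the 16 B-cell markers was at 0 in all libraries of a group. The part of the B-cell markers in the values of Klf2, S1pr1 and Foxo1 was not tested, and in bulk samples more cells of a type and more RNA per cell cannot be told apart.

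Markers of other blood cells overlapped between the groups in their summed level. T-cell markers summed to 193 to 439 FPKM in libraries labelled deficient and 336 to 975 FPKM in WT, with 0 of 11 past the threshold. Cd247, which encodes CD3 zeta, had a log2 difference of -2.29 (limma adjusted p = 0.0897). Myeloid markers were at 1593 FPKM in labelled-deficient replicate 3, where Klf4 was lowest and Klf6 highest of its group, against 255 to 345 FPKM in replicates 1 and 2 and 169 to 685 FPKM in WT. The highest WT sum was also in replicate 3, but there Klf4 was highest of its group, and WT Klf6 was highest in replicate 2. Of 10 tested myeloid markers 0 passed, among them Ctss (limma adjusted p = 0.248). NK-cell markers overlapped (69.8 to 313 and 55.9 to 184 FPKM), with 0 of 5 past the threshold, Klrd1 first (limma adjusted p = 0.133).

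Endothelial and stromal markers, given because endothelium makes Klf2, Klf4 and S1pr1, summed to 38.8 to 66.7 FPKM in libraries labelled deficient and 80.0 to 150 FPKM in WT, with 3 of 6 tested differences above 0 and 3 below. Those below 0 were the stromal genes Pdgfrb, Col1a1 and Col1a2. Pecam1, a gene of endothelium and also of leukocytes, was at 39.2, 39.9 and 30.0 FPKM, against 21.7, 21.1 and 17.3 FPKM in WT, higher without overlap (limma adjusted p = 0.506). Col1a1, Col1a2, Pecam1, Kdr and Esam were named after their values were seen. Pdgfrb of perivascular cells fell (log2 difference -2.26, limma adjusted p = 0.0469, and 0.0351 to 0.179 over 15 other settings, with the call lost without any 1 library), 1 of 6 tested. The endothelial genes Tek and Emcn stayed under 1 FPKM in all 6 libraries, and Cdh5 reached 1.99 FPKM in 1 labelled-deficient library. Kdr was at 0.175 to 1.53 FPKM in libraries labelled deficient and 0.188 to 2.699 FPKM in WT. Esam, joined with Vsig2 for the fit and not tested, was at 0 to 3.96 and 0.627 to 13.9 FPKM. The highest Kdr and Esam values of both groups were in replicate 2, so some endothelial RNA was present. Immediate-early and heat shock genes, a class with which Klf2, Klf4 and Klf6 are often induced when tissue is dissociated, summed to 729 to 1129 FPKM, against 464 to 1123 FPKM in WT. Of 11 tested 0 passed, Hspa1a first (limma adjusted p = 0.375). The highest sum was in replicate 2 of both groups, as were the highest Klf2 of both groups, the highest labelled-deficient Klf4 and the highest WT Klf6, whereas the highest labelled-deficient Klf6 and the highest WT Klf4 were in replicate 3. The part of these genes was not tested. Early T progenitor genes had 0 of 9 past the threshold, Gata3 first (log2 difference -1.74, limma adjusted p = 0.361).

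**Figure D4:**
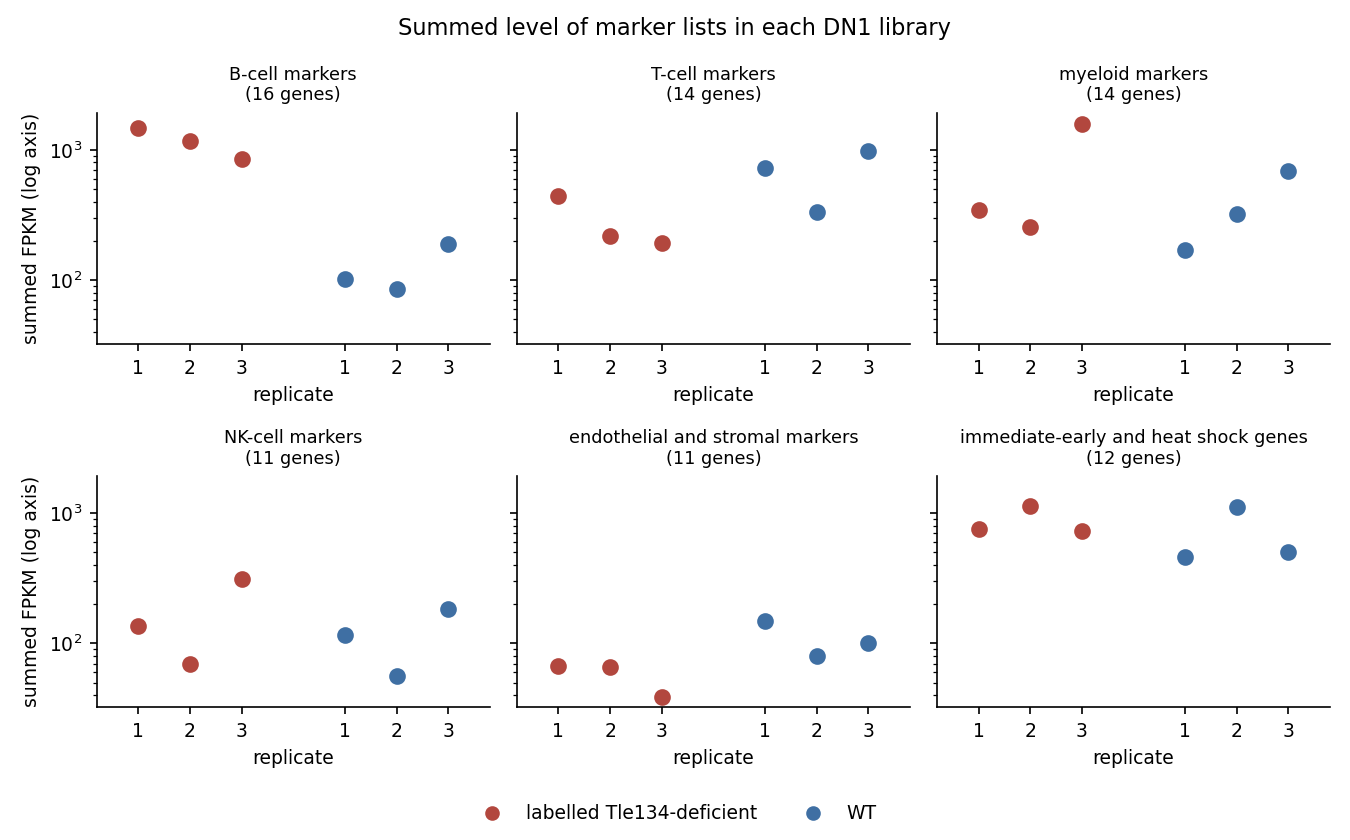
Summed FPKM (log axis) of 6 marker lists in the 3 labelled-deficient libraries (left, red) and the 3 WT libraries (right, blue). B-cell markers sum to 858 to 1472 FPKM against 84.8 to 190 FPKM, and myeloid markers stand out in labelled-deficient replicate 3 at 1593 FPKM.

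Genes with the profile most like that of Klf2 and S1pr1 were found by the root mean square difference of centred log2(FPKM + 1) over the 6 libraries, among 7639 genes with a mean of at least 5 FPKM. The nearest to Klf2 were Pikfyve (0.21), a lipid kinase of endosomes, Sorl1 (0.21), a sorting receptor, the repressor Bhlhe40 (0.22) and Zfp318 (0.24), which in B cells is needed for IgD. Sorl1 was at 40.5, 57.1 and 26.1 FPKM in libraries labelled deficient, against 5.63, 8.49 and 6.47 FPKM in WT. The nearest to S1pr1 were the phosphatase Ptprj (0.16), the protease St14 (0.17), the deacetylase Hdac9 (0.19) and Usp6nl (0.28). Ptprj was at 24.9, 24.1 and 13.4 FPKM, against 8.22, 4.48 and 6.15 FPKM.

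Among the set itself Foxo1 was the nearest to S1pr1, at 0.28, where only 3 genes of the 7639 were nearer. Klf2 was at 0.51 from S1pr1, with 108 genes nearer to S1pr1 and 60 nearer to Klf2. Of the 6 other members measured this way, S1pr4 not being among them because of its shared row, Klf3 and Klf6 were the farthest from Klf2, at 1.37 and 1.28. The 6 points are libraries of 2 groups, so these distances carry mostly the difference between the groups.

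**Figure D5:**
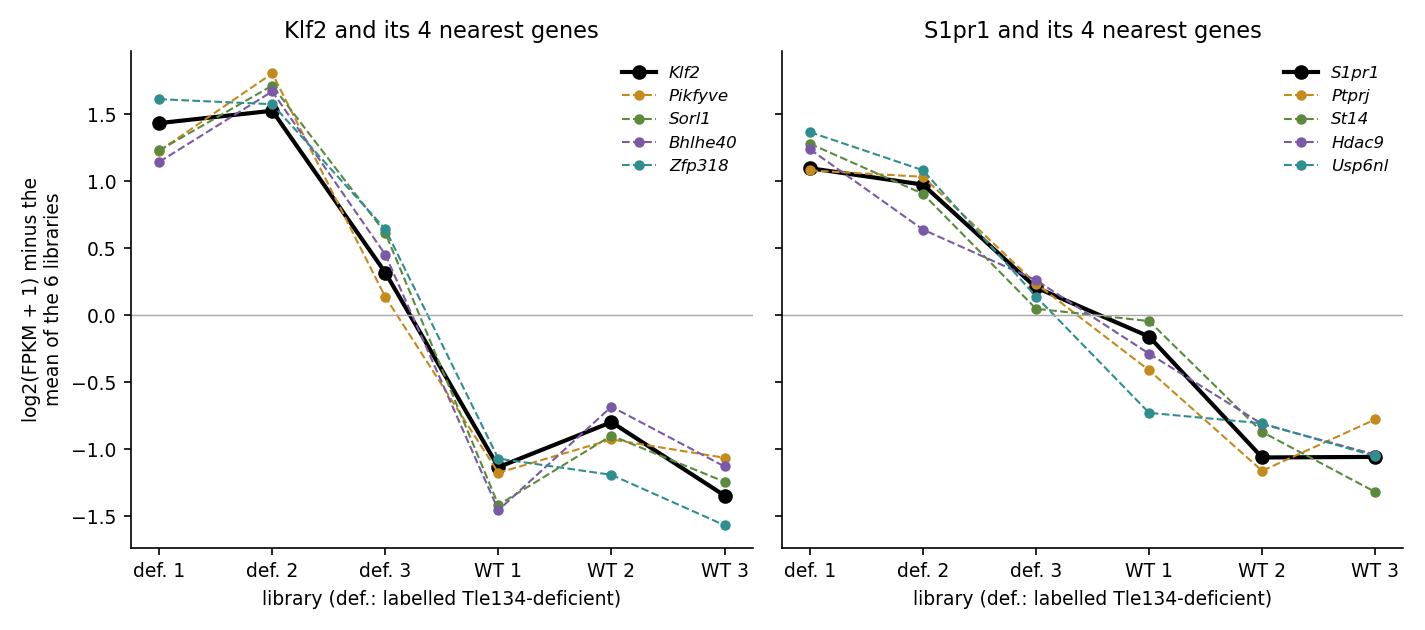
Log2(FPKM + 1) minus its mean over the 6 libraries (vertical axes) for Klf2 and S1pr1 (black) and the 4 genes with the smallest root mean square difference from each (dashed). Lines only join the points of a gene; Klf2 and its nearest genes are lowest of the labelled-deficient group in replicate 3, and the S1pr1 group has WT replicate 1 closest to the labelled-deficient libraries.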

How the data were processed

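RNA-seq values of 6 DN1 libraries were used. The submitters' processing notes list the build mm9 and the tools featureCounts 2.0.1, TopHat2 2.1.1 and Trimmomatic 0.38, without their roles or order. The authors deposited FPKM per locus with lower and upper bounds, per the file headers, in Cufflinks-style tables assembled per library; the sources used here do not give its version, the annotation or strand use. No counts were used, so depth is approximate, from bounds read as 2 SD on each side. Starts were raised by 1.

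Libraries were grouped by their titles. Symbols sharing a row were joined for the fit across all genes (23401 units), and split for the set, where joining is the alternative. Units with at least 1 FPKM in at least 3 libraries (11063) were fitted as log2(FPKM + 1) with limma 3.58.1 in R 4.3.3 (group as only term, trend, robust), adjusted by Benjamini-Hochberg at 0.05. The fit was tested on simulated data. Tables and plots used Python 3.11.15, pandas 2.3.3 and matplotlib 3.10.9. Alternatives were pseudocounts of 0.1 and 5, 2 scalings, filters, the replicate block, row handling and leaving out each library. Named genes are the 8 members, the Tle family, up to 3 called genes of each list by adjusted p (the first where none passed), and the 4 nearest profiles of Klf2 and S1pr1, with predicted models left out. The members and lists were chosen with earlier results of these data known.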

Additional observations from a re-analysis of the deposited data

How the results depend on the processing

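Directions of Klf2, Klf3, Klf13, S1pr1, S1pr4 and Foxo1 held under all 13 other settings tried on the set, with log2 differences from 1.97 to 2.57 for Klf2, 1.26 to 1.82 for S1pr1, 0.78 to 1.39 for Foxo1, 0.48 to 0.80 for Klf13 and -0.59 to -0.36 for Klf3. S1pr4 ran from 0.45, with Ncln added in every library, to 1.53. Leaving out its shared row was chosen after seeing the data. Higher members without overlap numbered 2 and lower ones 0 under both scalings (4 and 1 as deposited), and 4 to 6 and 1 with 1 library left out. Over all genes, 71 were higher and 12 lower. Lower calls numbered 3 and 5 with pseudocounts of 0.1 and 5, and 4 without trend or robust step, and there were 0 higher and 0 lower with no filter (1181 genes at an unadjusted p under 0.05), where more genes were tested. With 1 library left out, 0 to 68 were higher and 0 to 10 lower. Leaving out labelled-deficient replicate 1 or 2, or WT replicate 1, gave 0 calls in limma (899, 911 and 800 genes had an unadjusted p below 0.05, where all libraries gave 1109). The 1 higher pathway gene, Cxcr4, became 0 with either pseudocount, with no filter, without trend or robust step, and in each leave-out (0 to 0). The cause was not tested.

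Same-numbered libraries shared only a number: their deviations correlated at 0.084, 0.182 and 0.174 across genes, each the best match of its library, a hint from the data and not the design. With the replicate block 1 gene was higher and 1 lower, with 0 higher pathway genes. Of other named genes, small differences reversed: Aes to -0.011 and -0.12 under median-ratio and quantile scaling, -0.13 without labelled-deficient replicate 1 and -0.24 without WT replicate 2 (from -0.24 to 0.29 over all leave-outs). S1pr2 turned to 0.13 without labelled-deficient replicate 1 (-0.92 to 0.13), and Tle2 to -0.49 without WT replicate 3 (-0.49 to 0.73). Depth is known only from the deposited bounds, and its effect on the calls was not tested.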
